A study of Mus musculus with 292 samples.

Results

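The mice described here are those of an F2 brain series that stood at the lower and at the upper of 3 separate levels of Pttg1, the gene for securin. The series holds 1 probe annotated to Pttg1, and its deposited value, read here as a log10 ratio of each mouse to a common RNA pool, chose the mice. A value under -0.5 made a Pttg1-low mouse, a value over 0.13 a Pttg1-high mouse, and the mice between formed a middle group. Of 292 mice, 81 were Pttg1-low, 143 were middle and 68 were Pttg1-high, so the main comparison rests on 149 mice. No genotype of any mouse was used. The groups are levels of 1 probe and are called by that.

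Per the labels, all mice were F2 animals of C57BL/6J and C3H/HeJ, 2 inbred strains, bred in both directions of the cross, and both females and males were included. They received chow with 4% fat, were switched at week 8 to a Western diet with 42% fat and 0.15% cholesterol, stayed on it for 12 weeks, and at 20 weeks of age were fasted for 12 h and killed. The Pttg1-low, middle and Pttg1-high mice shared all of this. Each brain was hybridised once on a 2-colour array against the pool, so each value is from a different animal, and biological and technical spread cannot be told apart. The labels name whole brain tissue. Since each value is relative to a pool of the same tissue, the level of a brain marker cannot be read from it and the tissue label could not be checked.

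Securin holds separase, the protease that cuts the cohesin ring between sister chromatids, inactive until the anaphase-promoting complex marks securin for destruction. Pttg1 was first known as the pituitary tumor-transforming gene and is best known from dividing cells, while most cells of the adult brain do not divide. In an F2 intercross, each chromosome reaches a mouse in long unbroken stretches of either parental strain, so that genes near each other on a chromosome tend to be inherited together. The gene table used for names places Pttg1 on chromosome 11, where it is number 125 of the 892 named genes measured on that chromosome.

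The bases before the annotated start are shown for Pttg1 and for the 3 genes of chromosome 11 that separated the Pttg1 groups with the smallest p-values. These sequences are from RefSeq, assembly GRCm38.p6 of C57BL/6J, 250 bases each, 5′ to 3′ on the strand of the gene. Coordinates are chr11:43425982-43426231 on the minus strand for Pttg1, chr11:29130494-29130743 on the plus strand for Pnpt1, chr11:29526147-29526396 on the plus strand for Mtif2 and chr11:44470549-44470798 on the minus strand for Ublcp1. All 4 windows lie at least partly inside the annotated span of their gene, so another transcript begins further out, and whether these bases act as a promoter, that of Pttg1 included, was not tested. Capitals mark matches to 6 motifs searched on both strands, namely the CCAAT box, the GC box written GGGCGG, the cell cycle promoter element TTTGAA, the common TATA box in the form TATAAA, the core of the cyclic AMP response element, TGACG, and the E-box spelled CACGTG. No match overlapped another.
Pttg1: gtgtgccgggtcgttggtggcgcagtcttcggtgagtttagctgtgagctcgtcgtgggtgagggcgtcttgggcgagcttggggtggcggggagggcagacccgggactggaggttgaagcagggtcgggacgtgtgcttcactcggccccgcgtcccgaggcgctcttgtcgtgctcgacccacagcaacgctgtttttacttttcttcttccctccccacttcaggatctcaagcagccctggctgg
Pnpt1: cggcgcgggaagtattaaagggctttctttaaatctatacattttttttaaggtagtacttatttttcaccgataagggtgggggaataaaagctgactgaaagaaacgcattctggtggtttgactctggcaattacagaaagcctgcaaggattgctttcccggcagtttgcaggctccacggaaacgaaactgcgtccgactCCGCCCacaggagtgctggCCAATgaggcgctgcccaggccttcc
Mtif2: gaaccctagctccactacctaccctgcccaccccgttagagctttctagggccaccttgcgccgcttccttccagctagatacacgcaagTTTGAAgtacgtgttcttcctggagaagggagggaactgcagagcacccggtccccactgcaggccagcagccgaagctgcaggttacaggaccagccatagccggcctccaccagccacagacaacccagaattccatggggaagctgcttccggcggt
Ublcp1: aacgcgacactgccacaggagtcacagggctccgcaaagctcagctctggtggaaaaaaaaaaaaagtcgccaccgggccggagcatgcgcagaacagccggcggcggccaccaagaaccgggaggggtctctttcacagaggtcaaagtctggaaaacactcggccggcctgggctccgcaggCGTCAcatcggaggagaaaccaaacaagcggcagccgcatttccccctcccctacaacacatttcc
The Pttg1 window held none of the 6 motifs, 20 CG dinucleotides and 63.6% G and C. Pnpt1 had 1 CCAAT and, on the opposite strand, 1 GGGCGG, Mtif2 had 1 TTTGAA, and Ublcp1 had 1 TGACG on the opposite strand. Of 32851 such windows over all genes, 33.8% held the CCAAT box, 32.7% the GC box, 16% TTTGAA, 12.4% the TATA box, 17.8% TGACG and 6.02% the E-box. These matches describe the letters only. The reference is that of one parental strain, and the other strain's sequence was not analysed here.

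Pttg1 fell into 3 bands with wide empty stretches between them. In Pttg1-low mice the log10 ratio was -1.133 at the lowest, -1.004 at the median and -0.884 at the highest. Middle mice ran from -0.0839 through a median of -0.00404 to 0.0652, and Pttg1-high mice from 0.188 through 0.267 to 0.365. No mouse lay between -0.884 and -0.0839 or between 0.0652 and 0.188, so the limits of -0.5 and 0.13 passed through gaps and the nearest mice on either side of each limit were far from it. As a linear ratio, Pttg1 averaged 0.101 ± 0.011 in Pttg1-low mice (SD, n = 81), 0.995 ± 0.0644 in middle mice (n = 143) and 1.85 ± 0.115 in Pttg1-high mice (n = 68). The ratio of the outer means was 18.4-fold, high over low. These values chose the mice and are given as a description.

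**Figure D1:**
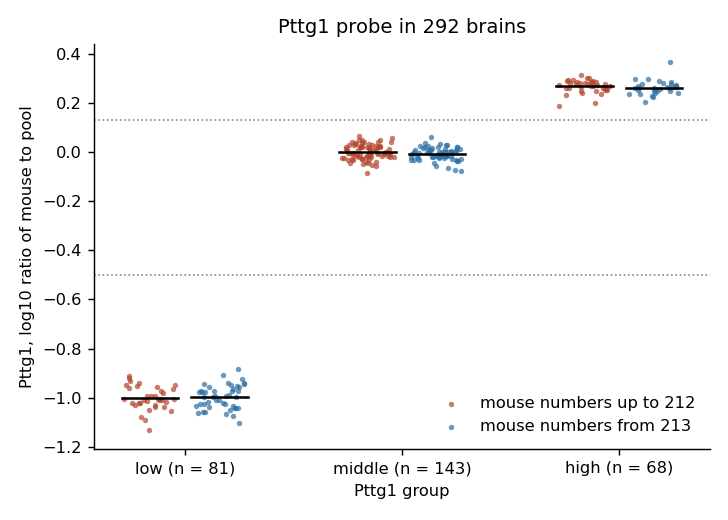
Log10 ratio of the Pttg1 probe (y axis) in each of 292 mice, by Pttg1 group (x axis) and by mouse-number block (colours); bars are means and dotted lines are the limits of -0.5 and 0.13. The 3 bands do not touch, and the means of the 2 blocks lie close together in each band.

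Low, middle and high mice made up 27.7% (95% Wilson interval 22.9 to 33.1), 49% (43.3 to 54.7) and 23.3% (18.8 to 28.5) of the series. The bands stood at the same place in both blocks of mouse numbers. In mice numbered up to 212 the Pttg1-low mean was -1.002 ± 0.0477 (SD, n = 36) and the Pttg1-high mean 0.268 ± 0.0257 (n = 37), and in mice numbered from 213 these were -0.998 ± 0.0477 (n = 45) and 0.263 ± 0.0284 (n = 31). The same levels bear on the direction and base of the deposited ratio, which the labels do not state. A pool of equal portions of every brain has a mean linear ratio of 1. For Pttg1 that mean was 0.946 as deposited in base 10, against 3.41 with the sign turned, 0.908 in base 2 and 0.895 in base e. The turned sign was far from 1, but the bases lay close together, so the base is not settled by this. The comparison assumes a pool of equal portions, which was not tested, and the values are those that chose the mice. It is therefore no test of direction or base. Each value is read here as mouse over pool, base 10, which is an assumption that the labels do not state. With the sign turned, every lower would read higher, and in base 2 every fold would be smaller, with 2.4-fold in place of 18.4-fold between the outer Pttg1 groups.

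Between Pttg1-low and Pttg1-high mice, 201 of 10834 other named genes differed, and most of those were lower in the Pttg1-low mice. The background is 1.86% of the named genes called at a limma adjusted p under 0.05, with mouse-number block as a covariate. Of these genes 145 were lower (1.34% of those tested) and 56 higher (0.517%). Over all probes, with or without a gene name, 411 of 23548 were called (1.75%), 303 lower (1.29%) and 108 higher (0.459%). Of 10904 probes with no gene name, 184 were called (1.69%), 140 lower (1.28%) and 44 higher (0.404%). Chromosome 11 held 89 of its 891 tested genes among the calls (9.99%), 50 lower (5.61%) and 39 higher (4.38%). The other chromosomes held 112 of 9943 (1.13%), of which 95 were lower (0.955%) and 17 higher (0.171%). With a difference of at least 1.2-fold as well, chromosome 11 had 16 lower (1.8%) and 8 higher (0.898%). The direction was thus mixed on chromosome 11, with 56.2% of its called genes lower, and mostly downward elsewhere, with 84.8% lower. In bulk tissue, fewer cells of a type and less RNA per cell cannot be told apart in any of these values.

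**Figure D2:**
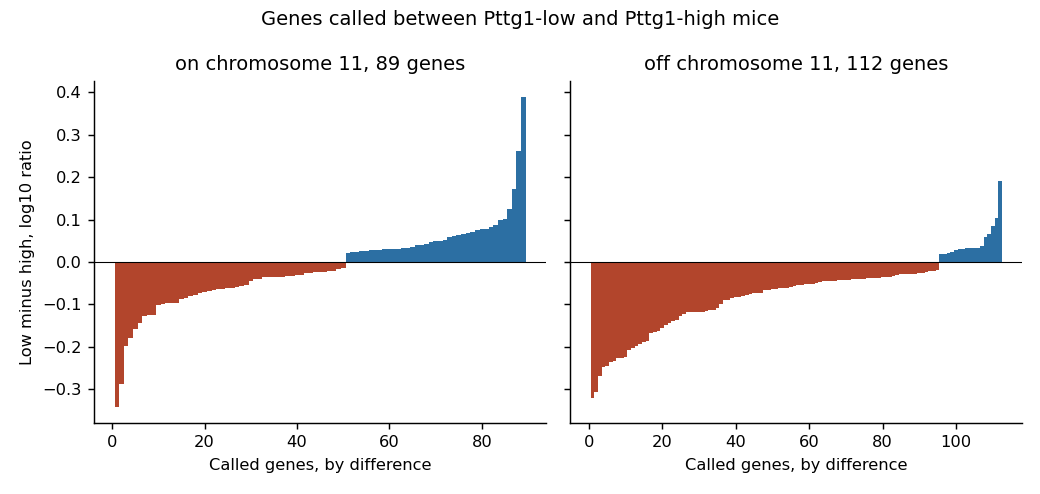
Low minus high difference in log10 ratio (y axis) of each called gene, sorted by size (x axis), for the 89 genes on chromosome 11 and the 112 on other chromosomes; red bars are lower and blue bars higher in Pttg1-low mice. The left panel has bars on both sides of 0, and the right panel mostly below it.

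The genes of chromosome 11 with the smallest p-values included a pair of neighbours that act on mitochondrial RNA and protein, both lower in Pttg1-low mice. Pnpt1, the RNA-degrading polynucleotide phosphorylase of mitochondria, lay 33 named genes from Pttg1. It had a lowest, median and highest log10 ratio of -0.314, -0.126 and 0.154 in Pttg1-low mice, against -0.203, 0.168 and 0.293 in Pttg1-high mice. It was 1.94-fold lower in Pttg1-low mice (log10 difference -0.288 ± 0.0136, SE; limma adjusted p = 8.01e-58). All 81 Pttg1-low mice were under the median of the Pttg1-high mice, although the ranges overlapped. Mtif2, a translation initiation factor of mitochondria and the next named gene, had -0.467, -0.165 and 0.148 in Pttg1-low mice, against -0.227, 0.201 and 0.301 in Pttg1-high mice. Its difference was the larger of the pair, at 2.2-fold lower (-0.342 ± 0.0168; limma adjusted p = 1.42e-54), again with all 81 Pttg1-low mice under the Pttg1-high median.

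Ublcp1, a phosphatase that acts on the proteasome in the nucleus, was the gene nearest to Pttg1 among those leading the list, 5 named genes away. Its lowest, median and highest values were -0.125, 0.161 and 0.286 in Pttg1-low mice, against -0.333, -0.117 and 0.0885 in Pttg1-high mice. It rose 1.83-fold in Pttg1-low mice (0.263 ± 0.0134, SE; limma adjusted p = 6.97e-52), and 80 of 81 were over the median of the Pttg1-high mice. By this probe it thus ran opposite to Pttg1. The gene has 3 probes, of which another was called in the same direction with a smaller difference of 0.0818 (limma adjusted p = 2.05e-08). The remaining probe differed the other way, by -0.0294, and was not called (limma adjusted p = 0.0622). Rasd1, a Ras-like G protein first found as a dexamethasone-induced gene, had the largest rise on the chromosome, 118 named genes away. Its values were -0.366, 0.125 and 0.396 in Pttg1-low mice, against -0.613, -0.279 and 0.0813 in Pttg1-high mice. That is 2.45-fold higher (0.39 ± 0.0252; limma adjusted p = 5.35e-37), with 79 of 81 Pttg1-low mice over the Pttg1-high median.

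**Figure D3:**
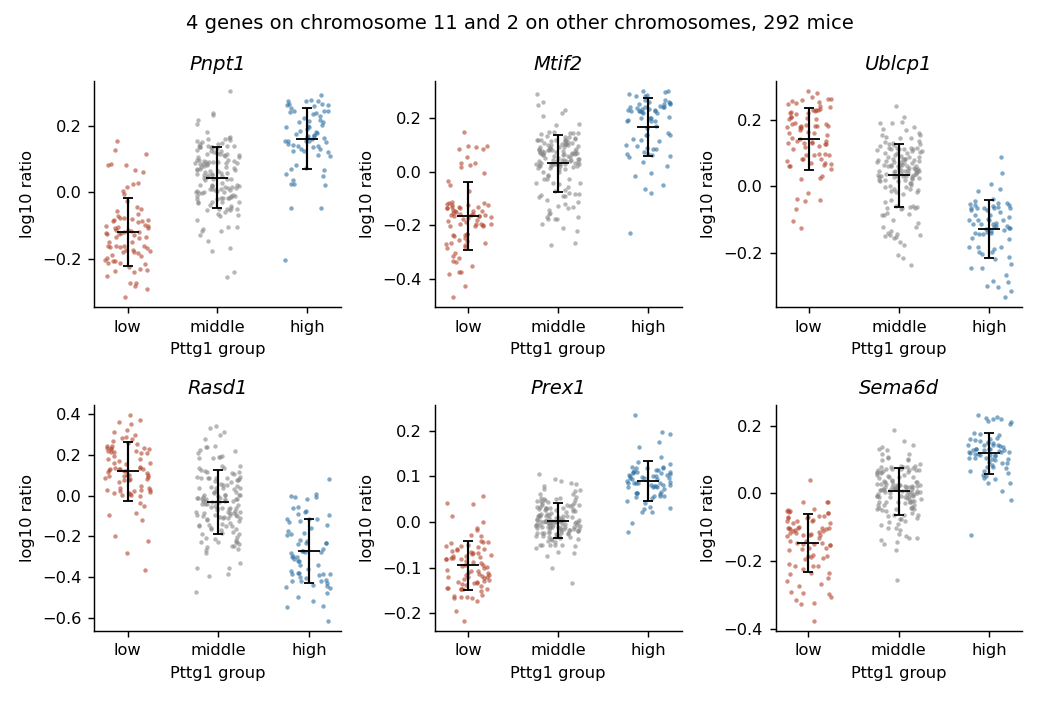
Log10 ratio (y axis) of 6 genes in each mouse by Pttg1 group (x axis), with the mean and SD in black; Pnpt1, Mtif2, Ublcp1 and Rasd1 lie on chromosome 11, Prex1 and Sema6d on chromosome 2. In each gene the mean of the middle mice lies between those of the outer groups, and the outer groups overlap.

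The other increases among the 15 leading genes were those of Kcnj12, Gria1, Dhrs7b and Stk10. Kcnj12, an inward rectifier potassium channel gene, was 1.49-fold higher in Pttg1-low mice, which averaged 0.00521 ± 0.0899, against -0.156 ± 0.086 in Pttg1-high mice (SD, n = 81 and 68; limma adjusted p = 1.74e-32). Gria1, which encodes a subunit of the AMPA type of glutamate receptor, was 1.33-fold higher, at 0.0492 ± 0.0664 in Pttg1-low mice and -0.0749 ± 0.0718 in Pttg1-high mice (limma adjusted p = 2.5e-22). Dhrs7b, of the dehydrogenase/reductase family, and Stk10, a protein kinase gene, rose by smaller steps, 1.21-fold and 1.2-fold (limma adjusted p = 7.86e-22 and 4.93e-21). For both of these genes 80 of 81 Pttg1-low mice were over the median of the Pttg1-high mice.

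The other decreases among the leading genes began with Ogdh, Pitpna and Igtp. Ogdh, a subunit of the 2-oxoglutarate dehydrogenase of the citric acid cycle, averaged -0.0918 ± 0.0785 in Pttg1-low mice, against 0.0544 ± 0.0674 in Pttg1-high mice, 1.39-fold lower (limma adjusted p = 3.67e-25). Pitpna, a phosphatidylinositol transfer protein gene 291 named genes away, had -0.163 ± 0.129 in Pttg1-low mice and 0.0437 ± 0.0991 in Pttg1-high mice, 1.57-fold lower (limma adjusted p = 2.31e-23), but its other probe differed by 0.00683 (limma adjusted p = 0.827). Igtp, an interferon-inducible GTPase gene, had -0.105 ± 0.0974 in Pttg1-low mice and 0.0742 ± 0.0774 in Pttg1-high mice, 1.51-fold lower (limma adjusted p = 2.44e-23). Ranges of the 2 groups overlapped in each of these genes, and 74 to 78 of the 81 Pttg1-low mice were under the Pttg1-high median.

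Further decreases were of similar or smaller size. Omg, which encodes a glycoprotein of myelin, was 1.44-fold lower (limma adjusted p = 6.53e-20), and at 340 named genes it was the farthest from Pttg1 of these 15 leading genes. Ccm2, whose human counterpart is mutated in cavernous malformations of brain vessels, was 1.33-fold lower (limma adjusted p = 1.86e-20). The remaining leading genes were 6330403K07Rik, 1.25-fold lower, and Fancl, a ubiquitin ligase gene of the Fanconi anaemia pathway, 1.19-fold lower (limma adjusted p = 2.84e-21 and 1.6e-19).

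Most of the genes next to Pttg1 were not called, although calls were more frequent near it than far out. Of the 10 named genes on each side of Pttg1, 4 of 20 were called, set against the 9.99% of the chromosome, and all 4 were higher in Pttg1-low mice. Besides Ublcp1 they were Ccng1 (cyclin G1), 1.1-fold higher, Tenm2, a synaptic adhesion gene, 1.09-fold higher, and Adam19, a metalloprotease gene, 1.05-fold higher (limma adjusted p = 2.95e-05, 0.00465 and 1.99e-06). The nearest neighbour on each side differed by -0.000536 ± 0.00575 for Atp10b, a lipid flippase gene, and by 0.00225 ± 0.0046 for Fabp6, a bile acid binding protein gene (log10 difference ± SE; limma adjusted p = 0.995 and 0.946). Gabra6 and Gabrb2, a pair of GABA receptor subunit genes 3 and 2 genes away, were not called either, with differences of 0.0724 ± 0.0222 and -0.013 ± 0.00826 (limma adjusted p = 0.0679 and 0.8). One Pttg1-high mouse had a Gabra6 value of -1.51, far under the group's median of 0.0282.

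The other neighbours that were not called were Pank3, Fbll1, Wwc1, Mat2b, Nudcd2, Ttc1, Adra1b, Il12b, Ebf1, Clint1, Lsm11 and Sox30. With arrays scaled to equal spread, Mat2b and Lsm11 were called as well, both higher in Pttg1-low mice (limma adjusted p = 0.033 and 0.0279). Over all 16 neighbours without a call the differences ran from -0.0212 to 0.0724. In rings around Pttg1, 20% of the genes up to 10 genes away were called, 20% of those 11 to 25 genes away, 10% at 26 to 50, 16% at 51 to 100, 14.5% at 101 to 200 and 7.05% farther out. The median size of the log10 difference, called or not, was 0.0144 and 0.0132 in the innermost pair of rings and 0.00591, 0.00858, 0.00649 and 0.00686 in the others, in the same order. Calls thus reached far along the chromosome and were least frequent in the outermost ring. Along the order of genes, windows of 25 held at most 8 called genes, in the window from gene 526 to 550, and 7 in that from 201 to 225. Windows with no call included those from 151 to 200 and those from 826 to the end.

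**Figure D4:**
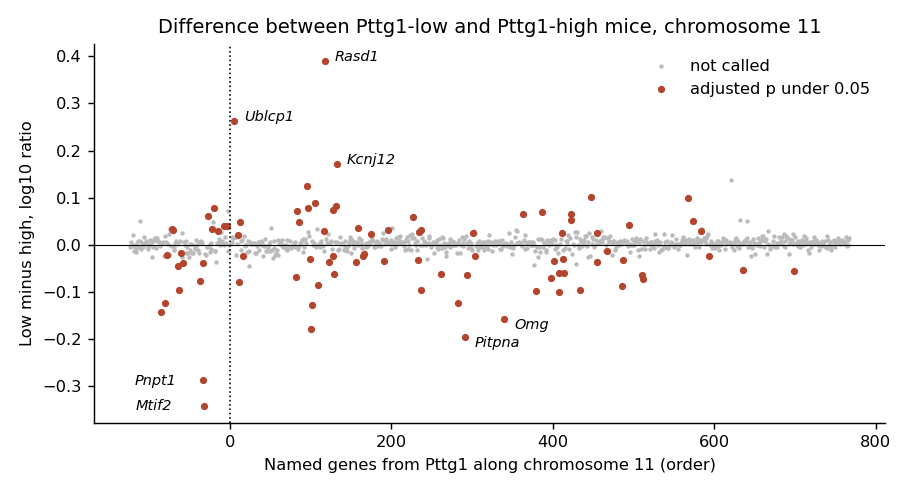
Low minus high difference in log10 ratio (y axis) of 891 named genes against their place in gene order from Pttg1 (x axis, 0 at the dotted line); red points passed an adjusted p of 0.05. Called genes lie on both sides of 0 and on both sides of Pttg1, among many uncalled genes, and are fewer toward the far end.

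Off chromosome 11, genes of various functions on many chromosomes were lower in Pttg1-low mice, by a median of 1.15-fold over the called genes of either direction, against 1.14-fold on chromosome 11. Prex1, which encodes an activator of Rac and lies on chromosome 2, had the smallest p of all named genes. Its lowest, median and highest log10 ratios were -0.216, -0.0977 and 0.0567 in Pttg1-low mice, against -0.0223, 0.0889 and 0.235 in Pttg1-high mice. It was 1.54-fold lower (-0.187 ± 0.0072, SE; limma adjusted p = 1.61e-73), and the ranges overlapped. Myl10, a myosin light chain gene of chromosome 5, had the largest decrease of these, with -0.378, -0.153 and 0.116 in Pttg1-low mice, against -0.0357, 0.155 and 0.347 in Pttg1-high mice. This was a 2.1-fold decrease (-0.321 ± 0.0143; limma adjusted p = 2.94e-62). Hmgb2, a chromatin protein gene of chromosome 8, was 2.03-fold lower, at -0.158 ± 0.0926 in Pttg1-low mice and 0.145 ± 0.0735 in Pttg1-high mice (SD; limma adjusted p = 9.27e-64).

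The rest of the 10 leading genes off chromosome 11 fell as well. Sema6d, a semaphorin gene of axon guidance, was 1.85-fold lower, Akap8l, a nuclear anchoring protein gene, 1.75-fold, and Gli3, a transcription factor gene of the hedgehog pathway, 1.72-fold (limma adjusted p = 7.63e-64, 9.54e-61 and 3.99e-53). H4c1, a histone H4 gene, was 1.68-fold lower, Tada3, an adaptor of histone acetyltransferase complexes, 1.68-fold, Epas1, an oxygen-regulated transcription factor gene, 1.45-fold, and D17H6S56E-5 1.41-fold (limma adjusted p = 1.31e-53, 5.62e-56, 4.09e-55 and 3.27e-50). For all 10 genes each of the 81 Pttg1-low mice was under the median of the Pttg1-high mice. Called genes off chromosome 11 lay on 19 chromosomes, with 3 to 11 on each. At least 1.2-fold, 42 were lower (0.422% of those tested) and 3 higher (0.0302%). The 3 higher ones, named after their values were seen, were Gm15772 at 1.27-fold, Chil5 at 1.21-fold and Miox at 1.55-fold (limma adjusted p = 5.49e-26, 0.00274 and 0.0305). Miox was called in neither block alone, with a log10 difference of 0.341 in mice numbered from 213 and 0.0447 in mice numbered up to 212 (limma adjusted p = 0.186 and 0.337).

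Other probes for the same genes were not called off chromosome 11. Among the called genes off chromosome 11, 20 had further probes, 34 in all, and limma called none of them, 6 being under an unadjusted p of 0.05. Hmgb2 illustrates this: its probe with the second largest SD differed by 0.00482 between Pttg1-low and Pttg1-high mice (limma adjusted p = 0.954). On chromosome 11, 12 called genes had 16 further probes, of which 5 were called, 4 of them in the direction of the first and 1, of Bod1, against it. The further probe of St6galnac1, a sialyltransferase gene 699 named genes from Pttg1, differed by -0.172 (limma adjusted p = 3.98e-56), against -0.0561 for the probe that stood for the gene. By that probe it would have been among the leading genes, so the choice of probe bears on which genes lead and how far out they lie. The probe with the largest SD stood for a gene, so a further probe is by choice one that varied less. Probe sequences were not used here, and for genes with close copies in the genome, such as H4c1, a probe cannot be tied to 1 copy.

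The genes that fell off chromosome 11 also moved together in what the fit of group and block left over. After the additive terms for group and block were removed, the 42 genes at least 1.2-fold lower had a median Pearson r of 0.517 over their 861 pairs (n = 292 mice), and 51.8% of pairs were over 0.5. That fit had no interaction term. Group differences that vary in size by block, as for Gli3 and H4c1, therefore remain in these values and were not separated from movement within groups. On chromosome 11 the 24 genes at least 1.2-fold changed had a median r of -0.0318, with 7.97% of pairs over 0.5. All pairs of named genes had a median of -0.00259, with 2.21% over 0.5. These correlations are a description over genes measured on the same arrays, and the genes were picked by their difference. No explanation of either pattern was tested.

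None of the measured genes in the securin and mitosis lists was called, a count near the background. The 4 lists on securin, separase and cohesin, the anaphase-promoting complex, the spindle checkpoint and mitosis, and partners or targets of securin held 89 genes, of which 58 were measured and the others were not analysed here. Of these limma called 0 in either direction, against 1.86% of all named genes, and 3 were under an unadjusted p of 0.05. Their median difference was 0.00088, against 0.00146 over all named genes, and they ran from -0.0245 to 0.0292. The target of securin itself, the separase gene Espl1, differed by 0.00493 ± 0.00469 (SE; limma adjusted p = 0.882), and is singled out here for its role. Stag1, a subunit of cohesin, had -0.0119 ± 0.00923, Anapc7, a subunit of the anaphase-promoting complex, 0.0132 ± 0.00511, Mad1l1, of the spindle checkpoint, 0.0102 ± 0.00674, and the chaperone gene Dnaja1 -0.0213 ± 0.0103, the smallest p-values of their lists (limma adjusted p = 0.852, 0.323, 0.809 and 0.608).

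Of the markers of brain cell types and states, 1 was called. Over all lists, those of securin and mitosis and the genes with discrete levels included, 172 genes were measured. Limma called 1 lower and 0 higher, against 1.86% of all named genes, and 14 of 172 were under an unadjusted p of 0.05, against 913 of 10834. So few calls in lists of this size are near the background. The called gene was Gad2, a GABA synthesis gene in the list of neuron genes, 1.1-fold lower in Pttg1-low mice, which averaged -0.0187 ± 0.0928, against 0.0194 ± 0.077 in Pttg1-high mice (SD; limma adjusted p = 0.0446). That call was lost with only Pttg1-low and Pttg1-high mice in the fit (limma adjusted p = 0.077). The 8 measured neuron genes had a median difference of -0.0244, with all 8 under 0 and 7 not called. Other lists also lay mostly in a single direction. Of the interferon genes only Ifit3 was over 0, and of the pituitary genes only Chgb was under 0. The share of all named genes under 0 is not given here. None was called of 9 astrocyte, 11 oligodendrocyte, 8 microglia, 10 vessel, 6 choroid plexus and 6 erythrocyte genes, whose medians lay between -0.00803 and 0.0199. Of these, 3 microglia genes (Trem2, Csf1r and C1qa, all higher in Pttg1-low mice), 3 erythrocyte genes and 1 oligodendrocyte gene were under an unadjusted p of 0.05 by limma. Other microglia genes differed the other way, Ctss by -0.0101, C1qc by -0.00385 and C1qb by -7.75e-05, and the list's median was 0.00766. Of the erythrocyte genes, Bpgm differed by -0.0221 (limma adjusted p = 0.114) and was called, lower in Pttg1-low mice, with arrays scaled to equal spread (limma adjusted p = 0.0134). All other measured erythrocyte genes differed in the opposite direction, among them Hba-a1 by 0.0486 and Slc4a1 by 0.0144 (limma adjusted p = 0.599 and 0.64). The list as a whole was thus not lower in Pttg1-low mice, with a median of 0.0199.

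In the lists of cell states, limma called 0 of 14 genes of neuronal activity, 0 of 9 of the glucocorticoid response and 0 of 8 of the interferon response, with 0, 1 and 1 under an unadjusted p of 0.05. At a background of 1.86% lists this short would often hold no call. The pituitary list, of interest because the gene name Pttg1 refers to a tumor of that gland, had 0 of 11 called and 0 under an unadjusted p of 0.05, with a median difference of 0.0221. The 13 genes known from these data to take discrete levels at other places of the genome, such as the chloride channel gene Best1, were also not called, with differences from -0.0732 to 0.0545. Best1 itself had 0.0545 ± 0.0391 (SE; limma adjusted p = 0.845). The Y-linked genes Kdm5d and Eif2s3y differed by -0.0641 and -0.0649 (limma adjusted p = 0.923 for Kdm5d).

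Middle mice served as a check for dose, and they lay between the outer groups. For called genes at least 1.2-fold apart, the middle mean on the log10 scale was between the Pttg1-low and Pttg1-high means in all 42 lower and 3 higher genes off chromosome 11 and all 16 lower and 8 higher genes on it. Its place was scored from 0 at the Pttg1-high mean to 1 at the Pttg1-low mean. On the log10 scale the medians were 0.466 for the lower genes off chromosome 11, 0.48 for the lower genes on it and 0.599 for the higher genes on it. As linear ratios they were 0.502, 0.518 and 0.55. On that scale the lower genes off chromosome 11 ran from -0.184 to 1.03, so that not every middle mean lay between the outer ones, and Miox, among the higher ones, stood at 0.0662. Limma called 0 of 23548 probes for a departure of the middle mice from the mean of the outer groups (0% called), with 560 under an unadjusted p of 0.05 (2.38%), and 0 on linear ratios, with 544.

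Mtif2 and Ublcp1 show the step in values. Middle mice had a median Mtif2 ratio of 0.049, between the -0.165 of Pttg1-low and the 0.201 of Pttg1-high mice, and their mean departed from the mean of the outer groups by 0.0358 (unadjusted p = 0.00308 by limma). For Ublcp1 the middle median was 0.0476, between 0.161 in Pttg1-low and -0.117 in Pttg1-high mice, with a departure of 0.0302 (unadjusted p = 0.00175 by limma). Both departures are on the log10 scale and did not pass after adjustment. Pnpt1, Rasd1 and Myl10 departed in the same direction, by 0.0269, 0.0451 and 0.0334 (unadjusted p = 0.00572, 0.0125 and 0.00115 by limma). Other leading genes departed less, such as Prex1 by 0.00615 and, in the other direction, Omg by -0.00632 (unadjusted p = 0.232 and 0.555 by limma). The absence of calls after adjustment over all probes does not show that middle mice stood at the midpoint.

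The blocks of mouse numbers gave the comparison in separate mice. Of 891 genes tested on chromosome 11, 44 were called in mice numbered from 213 and 75 in mice numbered up to 212. Both blocks called 35, which is 79.5% of the first list and 46.7% of the second. Of 9943 genes tested off chromosome 11, 52 were called in mice numbered from 213 and 138 in mice numbered up to 212. Both blocks called 45, which is 86.5% and 32.6% of these lists. All 35 and all 45 shared genes had the same direction in both blocks. Of all genes called in mice numbered up to 212, 68 of 75 on chromosome 11 and 105 of 138 off it had the same sign in mice numbered from 213. The share of all tested genes with the same sign in both blocks is not given here. Differences were smaller in the later block: over the 89 genes called on chromosome 11 the median size was 0.0411 in mice numbered from 213, against 0.0692 in mice numbered up to 212, and over the 112 off it 0.0433 against 0.0812.

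For some genes the size differed between blocks beyond the error. Limma called 80 probes (0.34% of 23548) for a difference between blocks, 37 of them standing for named genes (0.342% of 10834). These were 8 of the 891 genes on chromosome 11 and 29 of the 9943 off it, a larger share on chromosome 11. The share of genes called between Pttg1-low and Pttg1-high mice was also larger there, at 9.99% against 1.13%. The larger share of block differences therefore does not show that called genes of chromosome 11 varied more by block than those off it. In 72 of the 80 the Pttg1-low against Pttg1-high difference was larger in mice numbered up to 212. Gli3 was -0.115 ± 0.0102 from 213, against -0.359 ± 0.0156 up to 212 (log10 difference of Pttg1-low minus Pttg1-high mice, SE; limma adjusted p of the difference = 1.55e-26). Omg on chromosome 11 was -0.098 ± 0.0153 from 213, against -0.219 ± 0.0247 up to 212 (limma adjusted p = 0.0188). Omg was the only one of the 15 leading genes of chromosome 11 called for this difference. Rasd1 had 0.324 from 213, against 0.457 up to 212, with an unadjusted p of 0.00819 by limma that did not pass after adjustment (limma adjusted p = 0.386). Pnpt1 had -0.29 from 213 and -0.286 up to 212, Mtif2 -0.343 in both, and Ublcp1 0.252 and 0.273 (limma adjusted p of the difference = 0.977, 0.999 and 0.866).

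**Figure D5:**
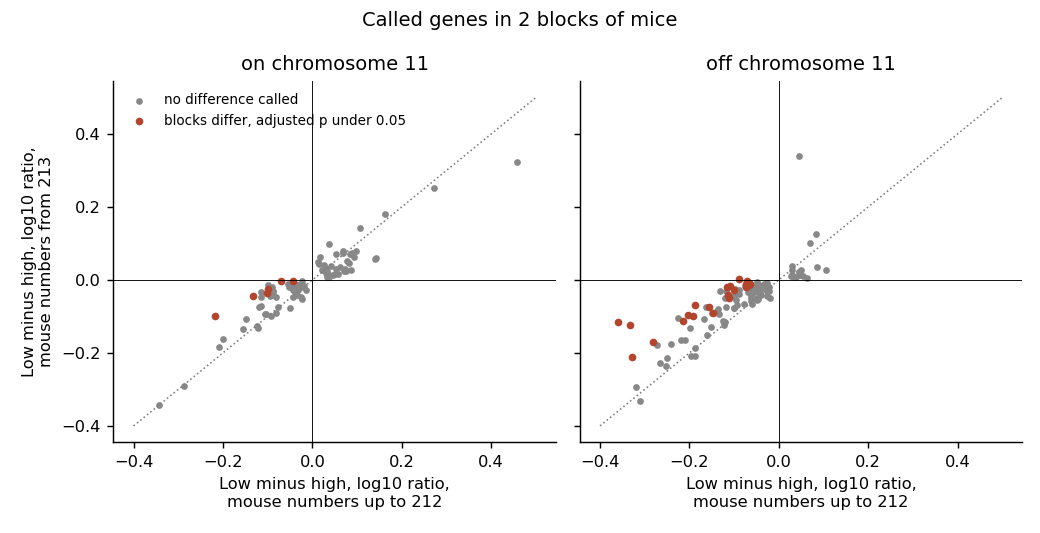
Low minus high difference in log10 ratio of each called gene in mice numbered from 213 (y axis) against mice numbered up to 212 (x axis), on and off chromosome 11; the dotted line marks equal differences and red points passed the test of a difference between blocks. Most red points are decreases off chromosome 11 that lie nearer to 0 in the later block.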

How the data were processed

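Brain RNA was column-purified, DNase-treated and amplified with aminoallyl nucleotides, per the labels' protocols. Cy3 marked each mouse and Cy5 the common pool, with no dye swap. The authors deposited 1 value per probe and mouse, read here as a log10 ratio. How images were quantified and ratios normalized is not given in the sources used here. No intensities were used, so signal over background is unknown here. The number of arrays, 1 per mouse, limits the precision.

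Of 23574 probes, 25 missing on more than 5% of arrays were left out, and missing values were not filled. Array medians lay between -0.0073 and 0.0133 and array SDs between 0.0437 and 0.199. Platform annotation listed 13713 probes, 48 of them with several genes, and 12662 were found in the RefSeq gene table (assembly GRCm38.p6), giving 10835 named genes including Pttg1; 9861 probes had no annotation. The probe with the largest SD stood for a gene. That table served for names, chromosomes and gene order.

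All other probes were tested with limma 3.58.1 in R 4.3.3 on the log10 ratios, with Pttg1-low, middle and Pttg1-high mice in 1 fit, block (mouse numbers up to 212, from 213) as covariate and Benjamini-Hochberg adjustment over 23548 probes. Mouse-number block is a split of the titles. The spelling of the description splits the first block into 74 and 77 mice, and the second block holds 141. These groups are called array sets here, a name for the split and not a batch stated by the labels. Dose was tested as middle minus the mean of the outer groups, and the blocks by an interaction. On simulated data of 23548 probes for the low against high comparison, 28% of changes of 0.02, 82% of 0.05, 100% of 0.1 and 98% of 0.2 (log10) were recovered. Of the unchanged probes, 7 were called. The simulated noise was independent between probes, middle mice stood at the midpoint and no change varied by block. The data differ from this, so these shares need not hold for them.

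Genes named are the 15 called on chromosome 11 and the 10 off it with the smallest p, the 10 neighbours on each side of Pttg1, the called members of each list (at most 4) or its member of smallest p, and the 5 of smallest p between blocks; a name outside this is said to be chosen for its role or its values. The groups, members, lists and tests were chosen with earlier results of these data known. Per the labels, the mice are separate animals. Alternatives covered covariates, samples, array normalization, weights, filters, fold, probe choice and group limits.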

Additional observations from a re-analysis of the deposited data

Results flagged for a closer look

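The difference between Pttg1-low and Pttg1-high mice was not of equal size in the 2 blocks of mouse numbers for 80 probes, by limma's test of the interaction. The 5 named genes with the smallest p of that test all lie off chromosome 11, and all had a difference under 0 in both blocks. Values are log10 differences, Pttg1-low minus Pttg1-high, ± SE. Gli3 had -0.115 ± 0.0102 in mice numbered from 213, against -0.359 ± 0.0156 in mice numbered up to 212, which differ by 0.245. H4c1 had -0.123 ± 0.0114 against -0.333 ± 0.015, apart by 0.21. Fastkd1, a gene for a protein of mitochondrial RNA processing, had -0.0155 ± 0.00755 against -0.109 ± 0.0077, apart by 0.0932, and was not called in mice numbered from 213 alone (limma adjusted p = 0.9998). D17H6S56E-5 had -0.0964 ± 0.00723 against -0.203 ± 0.0122, apart by 0.106. Tspan32, a tetraspanin gene, had -0.0694 ± 0.0073 against -0.187 ± 0.0147, apart by 0.117. The limma adjusted p of the difference ran from 1.55e-26 for Gli3 to 2.52e-08 for Tspan32.

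The earlier block was split here into 2 array sets by the spelling of the description, and whether these were separate batches is not known here. In these sets Gli3 had -0.367 and -0.346 and H4c1 -0.332 and -0.329. Between these sets limma called 1 probe for a difference in the comparison, with 1319 under an unadjusted p of 0.05.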

How the results depend on the processing

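Over 18 alternatives the 201 called genes became 96 with mice numbered from 213 alone, 213 with mice up to 212 alone, and 69 with a difference of at least 1.2-fold as well. On chromosome 11 the counts under the first and the last of these were 44 and 24, and off it 52 and 45. With mice numbered up to 212 alone, 67.4% of the genes called off chromosome 11 were lower, against 84.8% over both blocks. Fewer mice enter each block fit by construction, and the count of called genes fell in the later block but not in the earlier one. The cause was not tested. The remaining counts were within 1.5 times of the main ones, from 180 with no covariate to 261 with array weights, and 0 genes of the 4 securin and mitosis lists were called under any of the 18. Dose calls stayed at 0 with 3 array sets as covariate, with 632 probes under an unadjusted p of 0.05, and 56 probes differed between the 3 array sets. With the probe of second largest SD, an alternative added after seeing the data, Pitpna became 0.00683, Hmgb2 0.00482 and Tada3 0.00248, all of the opposite sign and not called (limma adjusted p = 0.827, 0.954 and 0.955), and Sema6d and Tenm2 lost their call. Gad2 lost its call with no covariate, with Eif2s3y as a further covariate, in either block alone, with the outer groups only, with limits of -0.7 and 0.2 for the groups, and under the fold limit. Tenm2 lost its call in the earlier block alone, and Adam19 and Fastkd1 in the later. The fold limit also ended the calls of Adam19, Ccng1, Fancl, Fastkd1, Stk10 and Tenm2. Mat2b, Lsm11 and Bpgm each gained a call with arrays scaled to equal spread, with quantile normalization and with array weights, and Gabra6 with no covariate. Of 1134 results of single genes, 1103 kept direction where called and side of the threshold. No paired analysis was possible because the labels put all mice in 1 group with no shared replicate numbers.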
